A study of Danio rerio with 23 samples.

Results

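Neurod1ΔECD is zebrafish Neurod1 without its evolutionarily conserved domain (ECD), the stretch between the bHLH and the transactivation domains that is shared by the vertebrate Neurod proteins. The 3 libraries of endoderm carrying this transgene were compared with the 3 control libraries, which makes 6 of the 23 samples of the series, taken by the transgene named in their labels. The question of the comparison is which genes the shortened protein still changes when it is induced in the embryonic gut.

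Both groups were sox17:dsred embryos of the AB strain and of wild-type genotype that received a heat shock at 38 hpf and again at 48 hpf and were collected at 52 hpf, and the dsred+ endodermal cells were sorted from pooled, dissected trunks. The Neurod1ΔECD embryos also carried the transgene labelled hsp70:neurod1delECD, in which the heat-inducible hsp70l promoter drives eGFP and Neurod1ΔECD from 1 transcript, and control embryos carried no such transgene. Every cell type that answers to heat can express the protein, so the construct does not restrict it to the gut or to one lineage. For the named genes, 4 libraries with full-length Neurod1 (hsp70:neurod1) and 3 with Neurod1ΔUCE, which lacks the ultra conserved element inside the ECD, were set beside these; they had the same strain, reporter, heat shocks and age. Levels in 3 libraries of wild-type EECs, sorted as GFP+ cells from pax6b:GFP larvae at 4 dpf, are given for orientation; these cells differ from the endoderm in age and reporter and were normalized separately.

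Neurod1 is a bHLH transcription factor that binds DNA together with E proteins. In the zebrafish gut it acts downstream of Ascl1a, the proneural factor that starts the secretory lineage, and it keeps differentiating endocrine cells on their course. In the zebrafish pancreas, the paper states, Ascl1b and Neurod1 themselves determine the endocrine lineage. Enteroendocrine cells (EECs), which secrete peptide hormones, and goblet cells, which secrete mucus, arise from a common secretory progenitor. Notch signalling separates these secretory cells from the absorptive cells around them.

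The deletion was made on the plasmid of full-length Neurod1 with a pair of back-to-back primers, shown here because they set the limits of what the shortened protein lacks. Each is written 5′ to 3′, with the 5′ base in capitals, since that end faces the removed stretch.
Neurod1-s, sense strand: Agccaggagatgccccctcatat
Neurod1-as, antisense strand: Cctcaagatttccgaaagagcccaa

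The libraries were judged first. Total counts ranged from 11895336 to 22301304 with Neurod1ΔECD and from 11514570 to 16144085 in controls, so 3 counts in a library, taken as the floor of detection, correspond to 0.153 to 0.27 CPM (read counts scaled to the size of the library); this floor covers counting error only, as the reads carry no molecular identifiers. Replicates of a group correlated with r between 0.878 and 0.934 across genes (log2 CPM), and no pair agreed within sampling noise. Pairs of a Neurod1ΔECD and a control library had r between 0.844 and 0.914. These ranges overlap, so replicates were not always closer to each other than to the other group. Markers of the sorted endoderm summed to between 2757 and 4649 CPM with Neurod1ΔECD and between 2015 and 2863 CPM in controls. Neurod1ΔECD library 2 held the highest of these sums. It also had the highest sum of intestinal epithelium markers, 2423 CPM against 1366 and 1136 CPM in Neurod1ΔECD libraries 1 and 3. Control 3 stood apart. Its 9 skeletal muscle markers summed to 21010.4 CPM, against 149 and 895 CPM in the other controls and 389 to 4725 CPM with Neurod1ΔECD, and its neuron markers summed to 379 CPM, against 16.1 to 63.6 CPM in the other 5 libraries. Control 2 differed in another way, with HSP90AA1 (ENSDARG00000024746), a heat-inducible chaperone gene, at 2024 CPM against 84.9 and 146 CPM in controls 1 and 3. Values without one of the controls are given beside the results.

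**Figure D1:**
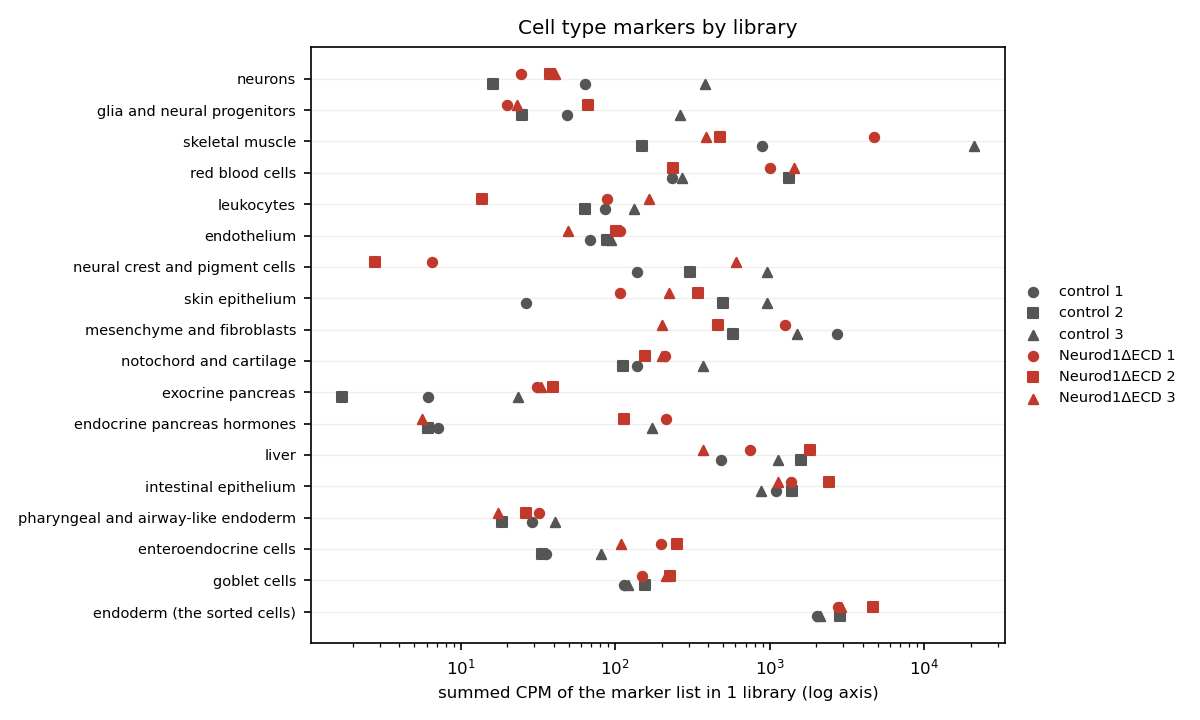
Summed CPM of 18 lists of cell type markers (rows) in each Neurod1ΔECD and control library, on a log axis; each symbol is 1 library. The grey triangle of control 3 lies to the right of all other libraries for skeletal muscle (21010.4 CPM) and neurons (379 CPM), while endoderm markers lie between 2015 and 4649 CPM in all 6 libraries.

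The level of the transgene cannot be read from these counts. According to the paper, reads that mapped to both the feature added for the transgene and neurod1 were left out. The feature that covers the part of neurod1 carried by the construct was counted at 7.33, 3.95 and 5.95 CPM in the 3 Neurod1ΔECD libraries and at 1.09, 0.27 and 0.118 CPM in controls. All Neurod1ΔECD libraries exceeded all controls, but the difference did not pass the test (log2 fold change 3.53, SE 1.81, FDR 0.75 with edgeR's quasi-likelihood test). Full-length Neurod1 libraries had 19.0 to 53.9 CPM of this feature and Neurod1ΔUCE libraries 1191, 1.52 and 1.69 CPM, so their first library stood far apart. Endogenous neurod1, which has no ECD deletion, stood at 7.38, 7.43 and 3.36 CPM with Neurod1ΔECD and at 2.54, 0 and 4.24 CPM in controls, and these values overlap. Its log2 fold change of 1.40 (SE 1.05) did not pass (FDR 0.759, edgeR).

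With Neurod1ΔECD, 8 genes rose at an FDR (adjusted p-value) of at most 0.1 with edgeR, which is 0.0423% of the 18911 genes tested. No gene fell (0%), although 503 genes were lower at an unadjusted p under 0.05 (2.66%) and 656 were higher (3.47%). DESeq2 on the same 16 libraries called 56 genes higher (0.278%) and 16 lower (0.0794%), among them all 8. The 8 genes were a pair of transcription factor genes of secretory cells, pax4 and gfi1aa, the structural or surface genes krt1-c5, anxa4, anpepb and plxdc1, the granulin gene grn1 and the uncharacterised si:ch73-330k17.3. In bulk samples, more cells of a type and more RNA per cell cannot be told apart.

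**Figure D2:**
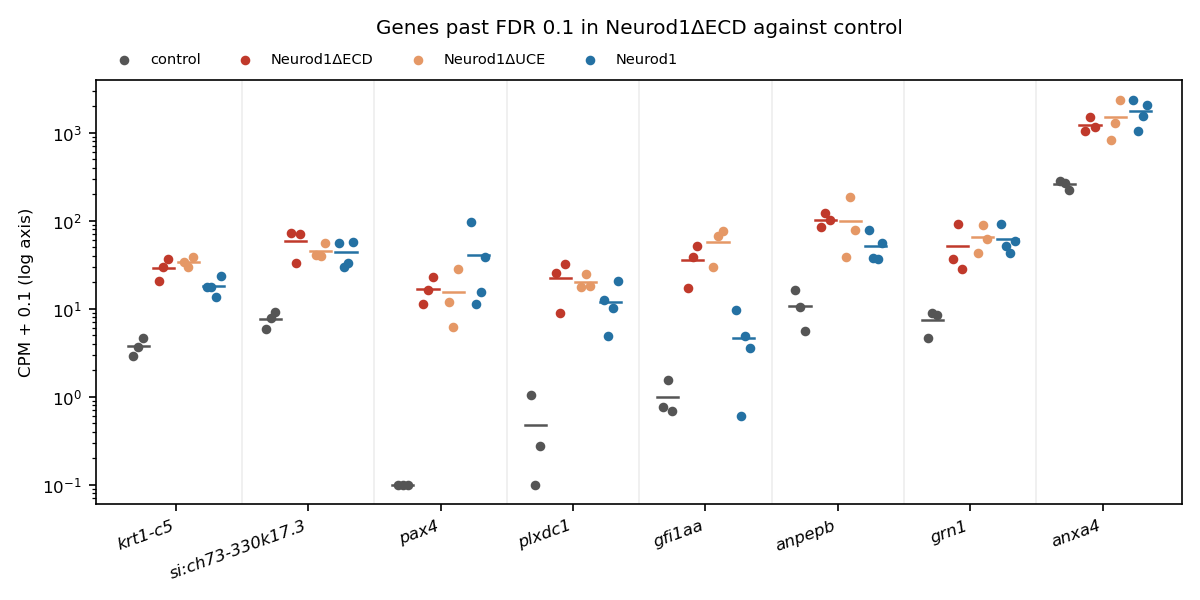
CPM plus 0.1 (log axis) of the 8 genes past an FDR of 0.1, with each library as a point and the group mean as a bar, for control, Neurod1ΔECD, Neurod1ΔUCE and Neurod1. The 3 Neurod1ΔECD points lie above the 3 controls for each gene; gfi1aa is at 17.0 to 51.8 CPM with Neurod1ΔECD and at 0.500 to 9.66 CPM with full-length Neurod1.

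pax4 (ENSDARG00000021336) encodes a paired homeodomain factor of endocrine progenitors. It was counted at 11.1, 16.3 and 22.6 CPM in the Neurod1ΔECD libraries and had no count in any control. Against the largest floor of a single control library, 0.27 CPM, its mean of 16.7 ± 5.72 (SD, n = 3) was at least 61.8-fold higher (FDR 0.0526, edgeR). Full-length Neurod1 libraries held 11.2 to 96.4 CPM, a range that contains the Neurod1ΔECD values, and the difference from full length had an interval from -2.84 to 0.29 on the log2 scale (95% interval, edgeR). Wild-type EECs had 310.5 CPM on average.

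gfi1aa (ENSDARG00000020746) encodes a zinc finger repressor whose mouse counterpart, Gfi1, is needed for goblet cells. Its levels were 17.0, 38.7 and 51.8 CPM with Neurod1ΔECD and 0.654, 1.44 and 0.589 CPM in controls. The groups were far apart, and the fitted log2 fold change was 5.34 (SE 0.87, FDR 0.0581, edgeR). The 4 libraries with full-length Neurod1 lay between 0.500 and 9.66 CPM, below all Neurod1ΔECD libraries. In the direct comparison gfi1aa was higher with Neurod1ΔECD by 2.96 on the log2 scale (SE 0.69, unadjusted p = 0.000551 with edgeR), which did not pass adjustment over all genes (FDR 0.91). With Neurod1ΔUCE it was at 29.6 to 75.9 CPM, a range that overlaps that of Neurod1ΔECD.

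The gene with the smallest p-value was krt1-c5 (ENSDARG00000026979), a keratin gene. It was at 20.3, 29.8 and 36.8 CPM with Neurod1ΔECD and at 2.76, 3.59 and 4.53 CPM in controls, a 7.97-fold difference of means (log2 fold change 2.99, SE 0.36, FDR 0.00768, edgeR). Next came si:ch73-330k17.3 (ENSDARG00000097169), which has no described role here. Its values were 71.5, 32.5 and 70.16 CPM against 5.81, 7.64 and 9.13 CPM (log2 fold change 2.95, SE 0.38, FDR 0.00859, edgeR). For both genes the lowest Neurod1ΔECD library was several times the highest control, and only these 2 of the 8 passed an FDR of 0.05. Wild-type EECs held 14.0 CPM of krt1-c5 and 0.386 CPM of si:ch73-330k17.3.

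anxa4 (ENSDARG00000036456) encodes annexin A4, a protein that binds membranes in a calcium-dependent way, and was the most abundant of the 8. It reached 1054, 1496 and 1176 CPM with Neurod1ΔECD against 285, 271 and 226 CPM in controls (log2 fold change 2.25, SE 0.40, FDR 0.0816, edgeR). anpepb (ENSDARG00000103878), for an aminopeptidase of the brush border, was at 84.1, 124 and 101 CPM against 16.1, 10.3 and 5.48 CPM (log2 fold change 3.28, SE 0.54, FDR 0.0581, edgeR). Wild-type EECs held 9221 CPM of anxa4 and 739 CPM of anpepb. anpepb also stands on the list of intestinal epithelium markers, of which 1 of 7 tested passed and 3 were higher at an unadjusted p under 0.05. The list's 10 markers, of which FABP1 had no count in any of the 6 libraries, summed to between 1136 and 2423 CPM with Neurod1ΔECD and between 882 and 1393 CPM in controls. The part of a changed share of absorptive cells in this result was not tested.

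plxdc1 (ENSDARG00000078417), which encodes a membrane protein with a plexin-like domain, was nearly silent in controls, at 0.944, 0 and 0.177 CPM. With Neurod1ΔECD it stood at 25.5, 8.72 and 32.5 CPM (log2 fold change 5.84, SE 0.93, FDR 0.0526, edgeR). No count of it was found in wild-type EECs. grn1 (ENSDARG00000089362), a gene for a short granulin, a type of secreted growth factor, was at 36.2, 92.4 and 27.8 CPM against 4.58, 8.80 and 8.42 CPM (log2 fold change 2.84, SE 0.48, FDR 0.0623, edgeR). Its paralog grn2 had 11.8, 37.6 and 13.9 CPM against 2.76, 2.52 and 2.297 CPM and was called by DESeq2 (adjusted p = 0.0106) but not by edgeR (FDR 0.503). Library 2 was highest for both granulin genes, and reads shared by these paralogs make their separate values uncertain.

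The 8 calls rest on single libraries of both groups to different degrees. Without Neurod1ΔECD library 1, 4 of them passed with edgeR, and anxa4, plxdc1, grn1 and anpepb did not. Without library 2, and likewise without library 3, 3 of them passed, and gfi1aa and pax4 were among those lost. Without control 3, the library rich in muscle and neuron transcripts, 3 genes passed with edgeR (0.0154% of 19491), namely krt1-c5 (FDR 0.0256), si:ch73-330k17.3 (FDR 0.0427) and APOD, and the other 6 genes had FDRs from 0.239 (pax4) to 0.526 (anxa4). APOD (ENSDARG00000060350), for an apolipoprotein, was at 157, 95.7 and 54.3 CPM with Neurod1ΔECD and at 0.799, 2.87 and 32.9 CPM in controls, the last being control 3. Without control 2 no gene passed, and krt1-c5 and si:ch73-330k17.3 stood at an FDR of 0.132. Without control 1, krt1-c5, plxdc1, si:ch73-330k17.3 and tnfrsf11a passed, and gfi1aa, pax4, anxa4, grn1 and anpepb did not. Thus anxa4 and anpepb passed in none of the fits that left out 1 library, and gfi1aa and pax4 only in that without Neurod1ΔECD library 1. Over the 6 fits that left out 1 library, the log2 fold changes of krt1-c5 stayed between 2.78 and 3.19 and those of gfi1aa between 4.98 and 5.83, while plxdc1 ranged from 5.32 to 7.66. The test also decided which genes were called: with edgeR on only the 2 groups compared, gfi1aa, pax4 and atoh1b passed, each at an FDR of 0.0999, and krt1-c5, si:ch73-330k17.3 and the other 4 did not, whereas voom kept those 6 and lost gfi1aa and pax4.

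**Figure D3:**
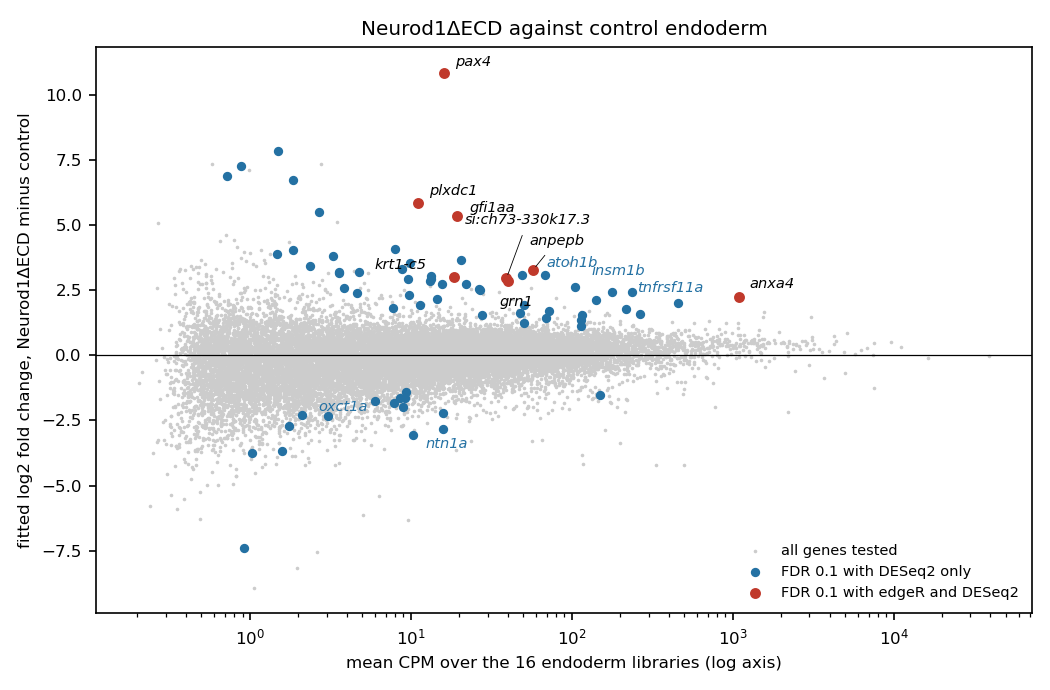
Fitted log2 fold change of Neurod1ΔECD minus control against mean CPM over the 16 endoderm libraries (log axis) for 18911 genes. The 8 genes called by edgeR and DESeq2 (red) all lie above 0, between 2.25 (anxa4) and 10.84 (pax4, whose value depends on the prior count as controls hold no count); blue points are the other genes called by DESeq2, 48 above and 16 below 0.

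Among genes that did not pass with edgeR, those ranked next by p-value with no overlap between the groups were described as well; the groups did not overlap for 8.97% of all genes tested in the higher direction and 8.47% in the lower. tnfrsf11a, for the receptor RANK of the tumour necrosis factor family, was at 244, 309 and 289 CPM with Neurod1ΔECD and 88.8, 36.0 and 31.7 CPM in controls (log2 fold change 2.43, SE 0.45, FDR 0.129, edgeR). It passed when control 1 was left out (log2 fold change 3.06, FDR 0.0518, edgeR). bckdk, for the kinase that switches off branched-chain keto acid breakdown, had 197, 311 and 318 CPM against 74.3, 75.8 and 88.5 CPM (FDR 0.144, edgeR). DESeq2 called both. Others of this rank were selenop, for a selenium transport protein, at 257 to 583 CPM against 129.6 to 131 CPM, and the cyclin gene ccnb3 at 46.0 to 84.0 CPM against 19.9 to 24.8 CPM, with FDRs of 0.24 and 0.29 in edgeR.

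atoh1b was also of this rank, and mouse Atoh1 directs intestinal cells to the secretory fate. It was at 98.0, 129 and 77.0 CPM with Neurod1ΔECD and at 12.1, 14.1 and 9.72 CPM in controls, an 8.45-fold difference of means. Genes of this rank were chosen for having no overlap between the groups. The FDR was 0.179 with edgeR (log2 fold change 3.08, SE 0.60) and 0.0999 in a fit of only the groups compared. DESeq2 gave an adjusted p of 0.000308. All 4 libraries with full-length Neurod1 lay near the controls, from 15.08 to 18.4 CPM. Against them atoh1b was higher with Neurod1ΔECD by 2.63 on the log2 scale (95% interval 1.51 to 3.75, unadjusted p = 0.000143 with edgeR, FDR 0.91). Neurod1ΔUCE libraries ranged from 16.5 to 180.3 CPM.

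In this rank there was also a cluster of neighbours. si:dkeyp-46h3.2 was at 8.80, 24.4 and 6.41 CPM with Neurod1ΔECD and at 1.31, 0.449 and 0.53 CPM in controls (log2 fold change 4.096, SE 0.89, FDR 0.337, edgeR). Its neighbours si:dkeyp-46h3.3 and si:dkeyp-46h3.6, which lie on the same chromosome in the RefSeq gene order of another assembly, had 1.68 to 11.1 and 1.68 to 5.95 CPM, against at most 0.236 and 0.0589 CPM in controls. Library 2 was highest for all 3, DESeq2 called all 3, and reads shared by these related genes make their separate values uncertain. LRAT (ENSDARG00000037278), for the enzyme that esterifies retinol, and the glucuronosyltransferase gene ugt5b4 were also highest in library 2. They were at 3.21, 13.4 and 4.04 CPM and at 8.19, 21.6 and 5.34 CPM, with controls at most at 0.824 and 1.67 CPM.

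On the lower side, ntn1a had the smallest p-value. It encodes netrin 1, a guidance cue for axons and migrating cells, and its levels were 4.58, 5.13 and 3.36 CPM with Neurod1ΔECD against 71.9, 21.5 and 16.9 CPM in controls (log2 fold change -3.07, SE 0.64, FDR 0.28, edgeR; DESeq2 adjusted p = 0.000993). Control 1 was the highest library. All controls exceeded all Neurod1ΔECD libraries, which was a condition for the genes of this rank. With full-length Neurod1 the gene was also low, at 3.08 to 7.56 CPM. oxct1a, for the mitochondrial enzyme that uses ketone bodies, had 5.45, 6.60 and 3.28 CPM against 12.9, 21.2 and 20.3 CPM (FDR 0.568, edgeR). ZEB2 (ENSDARG00000078416), for a repressor of epithelial genes, had 1.32, 1.00 and 1.30 CPM against 5.09, 6.65 and 6.42 CPM (FDR 0.695, edgeR). DESeq2 called these 3 genes lower, as it did arg2, mvp, aspg, CRTAC1, abhd4 and zgc:173556, while hk1, boc and rtcb, the remaining genes of this rank, were called by neither test.

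**Figure D4:**
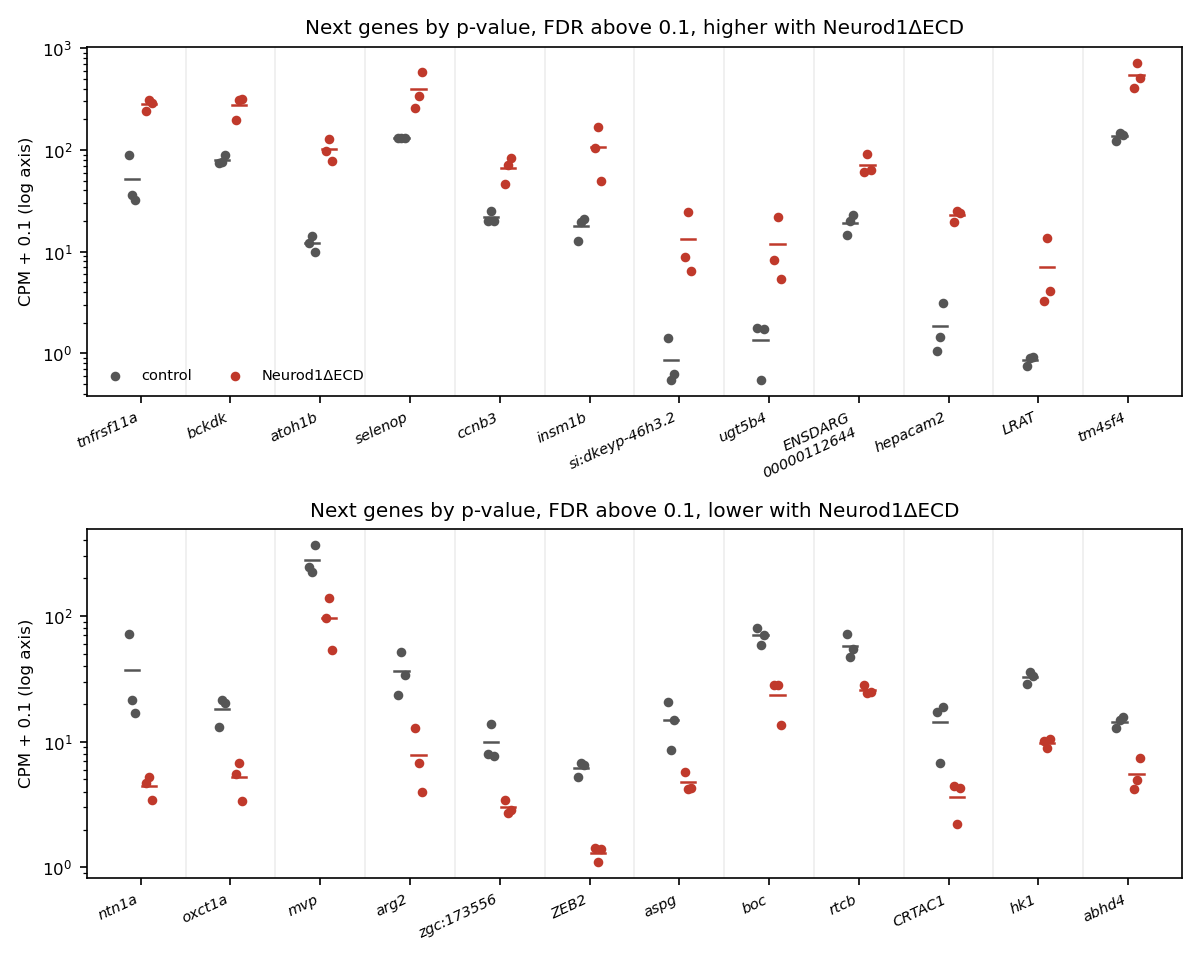
CPM plus 0.1 (log axis) of the 12 genes ranked next above and the 12 ranked next below the controls, each with an FDR above 0.1 in edgeR and no overlap between the 3 control (grey) and 3 Neurod1ΔECD (red) libraries; bars are group means. atoh1b is at 77.0 to 129 CPM against 9.72 to 14.1 CPM, and ntn1a at 3.36 to 5.13 CPM against 16.9 to 71.9 CPM.

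Gene lists that fit the gut endoderm were then read member by member, beside the median over all tested genes, a log2 fold change of -0.03, and the shares of 3.47% higher and 2.66% lower at an unadjusted p under 0.05. Of 24 tested transcription factor and marker genes of islet and enteroendocrine cells, 1 passed with edgeR, pax4, and 7 were higher and none lower at p under 0.05, with a median of 0.88. insm1b, a zinc finger factor of endocrine progenitors, was at 105, 169 and 49.3 CPM with Neurod1ΔECD and at 12.6, 19.7 and 21.0 CPM in controls (log2 fold change 2.60, SE 0.55, FDR 0.29, edgeR). tm4sf4, for a tetraspan membrane protein, had 402, 719 and 513 CPM against 121, 148 and 139 CPM (log2 fold change 2.00, SE 0.46, FDR 0.419, edgeR). Each was called by DESeq2, with adjusted p-values of 0.0037 and 0.0161.

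Several other endocrine factors were low and varied between replicates. fev, which in mammals marks serotonin cells and early EECs, stood at 5.85, 6.13 and 0.839 CPM against 0.436, 0.27 and 0.707 CPM. nkx2.2a, a homeodomain factor of endocrine cells, stood at 4.78, 5.72 and 17.2 CPM against 0.509, 0.27 and 3.47 CPM. rfx6, needed in mouse for islet cells, stood at 5.50, 0.766 and 4.58 CPM against 0.145, 0 and 0.766 CPM. In all 3 genes the lowest Neurod1ΔECD library came close to the highest control, and none passed (FDR 0.75 for each, edgeR). insm1a was steadier, at 34.3, 36.8 and 31.6 CPM against 14.9, 9.88 and 27.6 CPM, and its groups did not overlap. For pax6b, a pan-endocrine marker at 8.45, 12.7 and 0.763 CPM against 1.24, 1.53 and 4.83 CPM, the groups overlap. Control 3 was the highest control for nkx2.2a, rfx6, insm1a and pax6b, and without it the list's median was 1.69 with 10 of 24 genes higher at p under 0.05, against 2.76% of all genes, and no member passed. Without control 1 the median was 0.79 and without control 2 it was 0.84. In each of these fits 4 of 24 genes were higher at p under 0.05 and no member passed. Of all genes, 564 of 19537 and 581 of 19600 were higher at that threshold. The 8 EEC markers, of which 5 are members of this list (pax6b, neurod1, insm1a, insm1b and rfx6), so that they are no separate evidence, summed to between 109 and 251 CPM with Neurod1ΔECD and between 33.8 and 80.5 CPM in controls.

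Full-length Neurod1 libraries had higher values for insm1a, and also for plcxd3 and scg3, which do not encode transcription factors. insm1a was at 49.9 to 186 CPM there, above all Neurod1ΔECD libraries, a difference of -1.70 on the log2 scale (95% interval -2.79 to -0.61, unadjusted p = 0.00447 with edgeR, FDR 0.91). plcxd3, for a phospholipase-like protein, was at 5.08 to 20.6 CPM with full-length Neurod1 but at 0.763, 0 and 0.381 CPM with Neurod1ΔECD and at most 0.766 CPM in controls. scg3, for a granule protein, was at 60.5 to 178 CPM against 34.3, 23.5 and 18.8 CPM. No gene passed between Neurod1ΔECD and full-length Neurod1 with edgeR (0%, with 820 genes or 4.34% at an unadjusted p under 0.05, and 21 called by DESeq2, 0.0837%). Between Neurod1ΔECD and Neurod1ΔUCE no gene passed either (0%, with 597 genes or 3.16% at p under 0.05), and DESeq2 called 1, LRFN2 (0.00353%).

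mfsd4aa and evi5a went the other way from insm1a. mfsd4aa, for a sugar transporter-like membrane protein, was at 24.8, 13.0 and 32.4 CPM with Neurod1ΔECD, 3.56, 2.87 and 2.77 CPM in controls and 3.18 to 9.81 CPM with full-length Neurod1. All Neurod1ΔECD libraries were above all others of these groups, and the log2 fold change against controls was 2.93 (SE 0.68, FDR 0.439 with edgeR, DESeq2 adjusted p = 0.00636). evi5a, for a protein with a Rab GTPase-activating domain, was at 24.6, 13.4 and 35.2 CPM against 12.2, 8.09 and 8.66 CPM in controls and 4.13 to 8.10 CPM with full-length Neurod1. cacna1ba, for a neuronal calcium channel subunit, did not separate from controls, at 11.1, 4.302 and 32.3 CPM against 14.3, 17.9 and 11.7 CPM, though it was at 0.96 to 2.68 CPM with full-length Neurod1.

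Markers of goblet and other secretory cells showed few differences. Of 20 tested genes, gfi1aa passed and atoh1b was the only other one at p under 0.05, with a list median of -0.29, which turned to 0.19 without control 3 and to 0.10 without control 1 (11 of 20 positive in each). agr2, which goblet cells need to fold mucins, was at 130.4, 188 and 159 CPM with Neurod1ΔECD and at 112, 155 and 119 CPM in controls, so the groups overlapped (log2 fold change 0.31, SE 0.37, FDR 0.822, edgeR). The mucin gene muc5.3 was at 0.763 to 1.18 CPM against 0.0898 to 1.24 CPM. The 4 goblet cell markers, all members of this list and gfi1aa among them, had positive log2 fold changes with a median of 1.07. That median was 1.88, 0.89 and 1.28 without controls 1, 2 and 3, and only gfi1aa was at p under 0.05. These markers summed to 148 to 228 CPM with Neurod1ΔECD and 113 to 157 CPM in controls, which overlap.

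Hormone genes varied widely between replicates. None of 20 tested passed with edgeR, 4 were higher at p under 0.05 and none lower, and the median was 0.64. It was 1.47 with 16 of 21 positive without control 3, 0.57 without control 1 and 0.51 without control 2. ins, for insulin, was at 87.8, 68.8 and 0.153 CPM with Neurod1ΔECD and at 5.01, 0 and 38.5 CPM in controls, so the groups overlapped (FDR 0.813, edgeR). ghrl, which encodes ghrelin, was at 9.31, 22.5 and 5.80 CPM with Neurod1ΔECD against 1.67, 2.43 and 0.824 CPM in controls (log2 fold change 2.94, SE 0.74, FDR 0.573 with edgeR, DESeq2 adjusted p = 0.0181). insl5a, a relaxin family hormone gene, was at 0.509, 0.589 and 4.12 CPM against 0.145, 0.18 and 0.294 CPM. Wild-type EECs held 91.3 CPM of ghrl and 2415 CPM of insl5a.

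The granule list depended on control 3. Of 35 genes for prohormone processing, granules and exocytosis, 25 had a negative log2 fold change and the median was -0.68, with 5 higher and 1 lower at p under 0.05. Without control 3, 26 of 37 were positive and the median was 0.69, with 6 higher and none lower, and no member passed in either fit. The neuron marker elavl3 was at 187 CPM in control 3, against 20.6 and 2.07 CPM in the other controls and 3.72 to 13.2 CPM with Neurod1ΔECD. hepacam2, for a membrane protein of the immunoglobulin family, was less affected, at 19.3, 24.9 and 24.0 CPM with Neurod1ΔECD against 0.944, 1.35 and 3.00 CPM in controls (log2 fold change 3.67, SE 0.83, FDR 0.406 with edgeR, DESeq2 adjusted p = 0.00191). rtn1a, a reticulon gene of neuroendocrine cells, was at 229, 306 and 285 CPM against 28.0, 15.5 and 109 CPM, again with control 3 highest.

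**Figure D5:**
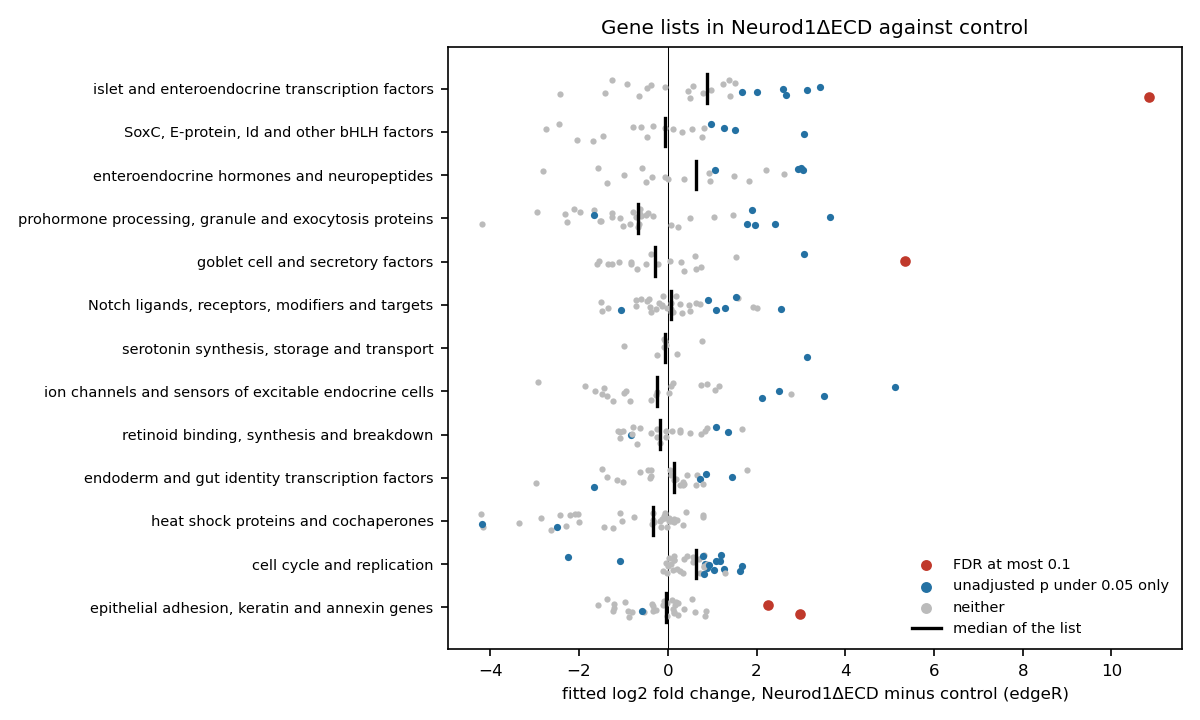
Fitted log2 fold change (Neurod1ΔECD minus control, edgeR) of each tested member of 13 gene lists, with the list median as a black bar; red points passed an FDR of 0.1 and blue points only an unadjusted p of 0.05. Medians run from -0.68 for granule and exocytosis genes, a value that turns to 0.69 without control 3, to 0.88 for islet and enteroendocrine factors, where the red point is pax4.

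Most cell cycle genes had higher fitted values with Neurod1ΔECD, but no member passed with edgeR. Of 38 tested, 32 had a positive log2 fold change, 12 were higher and 2 lower at p under 0.05, and the median was 0.63. In 15 of these 38 genes all Neurod1ΔECD libraries exceeded all controls, against 8.97% of all genes tested. The members with the smallest p-values included ccnb3 and several genes acting at mitosis, while the 2 lower ones, mcm6 and mcm7, encode parts of the helicase that opens DNA for replication. cdc20, an activator of the anaphase-promoting complex, was at 106, 104 and 107 CPM against 31.0, 49.4 and 57.8 CPM in controls, and cdca8, for a subunit of the chromosomal passenger complex, at 103, 138 and 106 CPM against 39.4, 62.3 and 50.6 CPM. cdk1 was at 249.8, 221 and 296 CPM against 129, 165 and 135 CPM. Their FDRs were 0.75, 0.66 and 0.75 with edgeR, and DESeq2 called 1 member, ccnb3. The median was 0.53 without control 1, 0.73 without control 2 and 0.61 without control 3. In these fits 8, 10 and 9 members were higher at p under 0.05, against 564 of 19537, 581 of 19600 and 537 of 19491 genes. No member was lower at p under 0.05 without control 1 or without control 3, and 2 were without control 2.

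Notch pathway genes gave no call with edgeR or DESeq2, with log2 fold changes from -1.50 to 2.54. Of 36 tested none passed, 5 were higher and 1 lower at p under 0.05, and the median was 0.07. The ligand gene dlc was at 51.2, 85.9 and 48.9 CPM with Neurod1ΔECD and at 40.8, 28.3 and 29.7 CPM in controls (log2 fold change 0.91, SE 0.33, FDR 0.75, edgeR). lfng, for the fringe enzyme that modifies Notch receptors, was at 215, 125 and 165 CPM against 53.8, 64.7 and 87.4 CPM, and the hes family gene hes6 at 45.8, 61.4 and 68.1 CPM against 23.1, 25.4 and 33.5 CPM. The ligand genes dlb and dll4 overlapped between the groups, with control 3 at 49.2 and 9.83 CPM, above the other controls at 10.8 and 10.1 CPM and at 1.67 and 2.07 CPM. Without control 3, 8 members were higher and none lower at p under 0.05 and the median was 0.48, while it was -0.05 without control 1 and -0.10 without control 2.

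Other bHLH and SoxC genes included sox4b, a gene whose expression the paper places in all secretory progenitors. It was at 85.4, 83.8 and 121 CPM with Neurod1ΔECD and at 46.1, 32.5 and 23.1 CPM in controls (log2 fold change 1.51, SE 0.51, FDR 0.75, edgeR). id1, an inhibitor of bHLH factors, was at 155, 213 and 136 CPM against 58.4, 70.25 and 79.0 CPM. Of the 19 tested genes of this list none passed, and the median was -0.07. At p under 0.05, 4 were higher, among them atoh1b, which is also on the goblet list. The median turned to 0.53 with 13 of 20 positive without control 3, to 0.07 with 11 of 20 without control 1, and to 0.01 without control 2.

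Gut identity factors gave no call. Of 27 transcription factor genes of the gut none passed, 3 were higher and 1 lower at p under 0.05, and the median was 0.14. The intestinal factor gene cdx1b was at 443, 611 and 489.9 CPM with Neurod1ΔECD and at 319.6, 372 and 240.1 CPM in controls (log2 fold change 0.73, SE 0.34, FDR 0.75, edgeR). hnf4g was at 74.3, 91.5 and 91.5 CPM against 59.0, 49.9 and 32.0 CPM. Among 35 genes for adhesion, keratins and annexins, krt1-c5 and anxa4 passed, and the median of the rest of the list with them was -0.04 (0.04 without control 2).

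Ion channel, serotonin and retinoid genes gave no call with edgeR, among 25, 9 and 25 tested. Their medians were -0.24, -0.07 and -0.17, and each turned with a control. Without control 3 the ion channel median was 0.35 (16 of 27 positive) and the serotonin median 0.73 (7 of 11). Without control 1 these medians were 0.01 (15 of 29) and 0.05 (6 of 11), and the retinoid median was 0.09 (14 of 26). kcnn3, for a calcium-activated potassium channel, was at 23.7, 14.6 and 43.4 CPM with Neurod1ΔECD against 5.52, 3.14 and 5.59 CPM in controls and was called by DESeq2 (adjusted p = 0.0534). stra6, for a cell surface transporter of retinol, was at 27.6, 30.7 and 21.3 CPM against 9.23, 17.0 and 11.1 CPM (log2 fold change 1.09, SE 0.36, FDR 0.75, edgeR).

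Most chaperone genes had lower fitted values than in controls, and control 2 had a large part in the sizes for HSP90AA1 and hsp70.1. Of 39 heat shock and cochaperone genes tested, 29 had a negative log2 fold change, 2 were lower and none higher at p under 0.05, none passed, and the median was -0.33. HSP90AA1 was at 49.5, 28.8 and 44.8 CPM with Neurod1ΔECD, below all controls including the 2024 CPM of control 2. hsp70.1 was at 6.06, 0.236 and 0.763 CPM against 2.98, 122 and 4.89 CPM, and hspa5, for the chaperone of the endoplasmic reticulum, at 170, 92.5 and 276 CPM against 712, 1117 and 307 CPM. Without control 2 the log2 fold change of HSP90AA1 went from -4.20 to -1.49 and that of hsp70.1 from -4.16 to -0.72, while the list's median stayed at -0.31. Both groups had received the same heat shocks.

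Exocrine pancreas markers also moved with the group, although the dissection aimed to leave the pancreas out. Their 11 markers summed to between 30.9 and 39.4 CPM with Neurod1ΔECD and between 1.71 and 23.4 CPM in controls, and all 7 tested had a positive log2 fold change, with 2 of them higher at p under 0.05 and none past the FDR with edgeR. amy2a, for amylase, was at 4.43, 8.37 and 2.14 CPM against 0.726, 0 and 0.294 CPM and was called by DESeq2 (adjusted p = 0.00411). The 4 hormone genes of the endocrine pancreas (ins, gcga, GCG and sst2), all members of the hormone list, summed to 215, 113 and 5.64 CPM with Neurod1ΔECD and to 7.12, 6.11 and 174 CPM in controls. Both groups thus held libraries with much and with little of them, and none of the 4 passed. Whether pancreatic cells in the sort take part in the values of pax4, insm1b and other genes shared by gut and pancreas was not tested.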

How the data were processed

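RNA-seq libraries (Smart-seq2, Nextera-XT, 75-base single-end reads) were made from sorted endodermal cells. The authors mapped the reads with STAR 2.5.4b to GRCz11 and deposited raw counts of reads per gene for 31902 features, with a feature added for the transgenic part of neurod1; strand setting and trimming tool are not given in the sources used here, so antisense and near-identical genes are uncertain. Of these, 29195 had a symbol, from the study's tables and a gene name table; the RefSeq order of GRCz12tu was used for neighbours only. Upper-case symbols are those of that table.

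Counts were fitted in R 4.3.3 with edgeR 4.0.16 (TMM, filterByExpr, quasi-likelihood test, 16 libraries of 5 groups in 1 fit, Benjamini-Hochberg FDR of 0.1), and groups were compared as contrasts. CPM values are TMM-normalized, except for EECs, which were scaled to their own totals. SEs were derived from the F statistic. The script was tested on simulated data. DESeq2 1.42.0 and limma 3.58.1 (voom with quality weights) were alternatives, with RLE normalization, no filter, a replicate block, an FDR of 0.05, only the groups compared, and each library left out. Named genes were all calls, the 12 next in each direction with at least 5 CPM in a group, the first 10 DESeq2 calls per direction, leading members of 13 lists, and genes the study names; not all are described. APOD, elavl3, grn2, agr2, muc5.3, LRFN2, the neighbours of si:dkeyp-46h3.2 and some list members were added after their values were seen. Members and lists were chosen with earlier results of these data known. Nothing states that libraries came from separate clutches, so p-values measure the spread between these libraries. The 3 wild-type EEC libraries serve as values only, and other samples were not used here beyond the fit.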

Additional observations from a re-analysis of the deposited data

Results flagged for a closer look

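In the 4 full-length Neurod1 libraries, 3 of the named genes had a library far from the others by Dixon's test at the 95% level. Chance alone gives this in about 1 of 20 groups. The number of named genes tested is not given here, so these 3 are not shown to exceed that share. selenop was at 274 CPM in the highest library, CRTAC1 at 19.2 CPM in the highest library and abhd4 at 6.54 CPM in the lowest library. None of these libraries enters the comparison of Neurod1ΔECD with controls except through the shared estimate of the spread.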

How the results depend on the processing

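The number of genes higher with Neurod1ΔECD, 8, was 56 with DESeq2 on all libraries, 151 with DESeq2 on only the groups compared, 20 with voom (without gfi1aa and pax4), 3 with edgeR on only the groups compared (gfi1aa, pax4 and atoh1b, without the other 6), and 2 at an FDR of 0.05. Leaving out single libraries gave 0 to 4, with 0 without control 2 and 3 without control 3. The 4 without control 1 were 3 of the 8 calls and tnfrsf11a. The 0 lower genes became 16 with DESeq2, 141 with DESeq2 on only the groups compared and 16 with voom. Against full-length Neurod1 the 0 genes became 21, 146 with only the groups compared, 1 with voom (mfsd4aa) and 1 with edgeR on only the groups compared (atoh1b), and against Neurod1ΔUCE 1 and 11 with the 2 DESeq2 fits. RLE normalization and the lack of a filter gave 8 and 10 higher genes and 0 lower.

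With the replicate number as a block, 3 genes were higher (krt1-c5, plxdc1 and si:ch73-330k17.3), and gfi1aa, pax4, anxa4, grn1 and anpepb did not pass. Same-numbered libraries deviated from their group means with correlations of 0.16, 0.235 and -0.044. Differently numbered libraries of the groups compared had correlations from -0.272 to 0.192. With 3 same-numbered pairs, these overlapping values cannot decide whether the numbers pair the libraries. The main fit used no block.

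The named genes whose direction turned under an alternative had no call with all libraries in edgeR. With single libraries left out, log2 fold changes ranged from -0.62 to 0.29 for gch1 (-0.24 with all libraries, 0.05 without control 1), from -0.14 to 0.33 for greb1l (0.09, and -0.11 without control 3), from -0.56 to 5.42 for plcxd3 (0.49, with -0.07 without control 1 and -0.02 without control 2), from -0.92 to 0.57 for cacna1ba (0.12, and -0.01 without control 3) and from -2.82 to 0.0075 for the ascl1a reading frame (-1.68). cacna1ba was also at -0.11 with voom and -0.70 with the block, and LMX1B (-0.99) at 0.17 with voom. The cause of these turns was not tested. Depth limits low genes such as rfx6 and fev, which stood near the floor of detection in controls.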
